A study of Mus musculus with 6 samples.

Results

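The genes described here are 44 interferon-stimulated genes, measured on whole-transcript microarrays in PLZF_ON and wild-type (WT) mice, in invariant natural killer T (iNKT) cells. They were chosen as a list of names, and a gene was taken as measured where a row of the deposited table carried its symbol and no other. That held for 40 of the 44, out of 22180 genes with such a row. The 40 comprise 28 antiviral genes of the type I interferon response, 7 GTPases induced by interferon-gamma, and 5 further genes, the regulators Irf1 and Irf8 and the antigen-processing genes Psmb8, Psmb9 and Tap1. Ifi44 had no row, and the rows of Oas1a, Gbp2 and Dtx3l also carried Oas1g, Gbp2b and Parp9, so their values are given apart.

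iNKT cells are T cells with a nearly invariant T cell receptor that recognises lipids on CD1d, and their development depends on PLZF, a BTB zinc finger protein encoded by Zbtb16. PLZF_ON mice express a form of PLZF that is constitutively acetylated, and the WT mice serve as controls. Each group had 3 arrays, of which replicates 1 and 2 of each were named as those analysed, so that comparison (4 arrays) comes first and the one over all 6 arrays second. How the modified PLZF is driven, the organ, the sort and the age of the mice stay not given in the sources used here, and the extraction protocol speaks of frozen tissue. Nothing says that replicates were separate animals, so p-values measure only spread among these 6 arrays, and that spread may be technical.

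Type I interferons and interferon-gamma signal through different receptors to Janus kinases and STAT proteins. Type I signals form a complex with STAT2 and IRF9 that binds interferon-stimulated response elements, whereas the interferon-gamma signal is read at gamma-activated sites. The antiviral class contains inhibitors of viral replication such as the IFIT and OAS proteins and sensors of foreign RNA. The gamma-induced class contains guanylate-binding proteins (Gbp genes) and immunity-related GTPases (Irgm1, Irgm2, Igtp and Iigp1), which act on membranes around intracellular microbes. NKT1 cells, a subset of iNKT cells, are themselves a source of interferon-gamma.

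Promoter windows were searched for letters that match these 2 elements, and a stretch is given here for 6 genes whose levels are described in the results that follow. Windows from 250 bases before to 50 after each annotated start came from RefSeq (GRCm38.p6), where 34 of the 44 genes matched by symbol. The response element core was searched on both strands as GAAA, any 2 bases and GAAA (in reverse complement TTTC, any 2 bases and TTTC), and the gamma-activated site as TTC, any 3 bases and GAA, which reads the same on both strands. Capitals mark the response element core, 5′ to 3′ on the strand of the gene.
Irgm2 (chr11:58214888-58214947, plus strand): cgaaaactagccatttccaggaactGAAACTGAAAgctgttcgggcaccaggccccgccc
Igtp (chr11:58199497-58199555, plus strand): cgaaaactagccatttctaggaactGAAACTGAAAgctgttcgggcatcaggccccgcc
Gbp7 (chr3:142530258-142530317, plus strand): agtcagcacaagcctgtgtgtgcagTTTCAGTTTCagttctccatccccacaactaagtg
Gbp3 (chr3:142559974-142560033, plus strand): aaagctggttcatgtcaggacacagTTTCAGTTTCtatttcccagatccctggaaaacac
Bst2 (chr8:71537568-71537627, minus strand): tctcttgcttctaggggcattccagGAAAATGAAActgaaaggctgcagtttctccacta
Ifit1 (chr19:34640760-34640819, plus strand): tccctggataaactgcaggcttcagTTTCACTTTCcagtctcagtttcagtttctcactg

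The first base of the core shown lay 64 bases before the start in Irgm2, 34 in Igtp, 53 in Gbp7, 45 in Gbp3, 130 in Bst2 and 104 in Ifit1. Irgm2 and Igtp, which are neighbours on chromosome 11, carried the same core letters. Gbp3, Bst2 and Ifit1 each held 1 more match to the core that is not in capitals. The core was found for all 7 GTPase genes in the promoter table (Gbp2, Gbp3, Gbp5, Gbp7, Igtp, Irgm1 and Irgm2), for 11 of 22 antiviral genes and for 0 of the 5 further genes, against 3.99% of all 27025 genes of the table. The gamma-activated site was found for 4 of 7 GTPase genes, 7 of 22 antiviral genes and 3 of the 5 further genes, against 9.55% of all genes. The windows thus did not split by class, since more GTPase genes held the core than the gamma-activated site. Matches of the 2 motifs can overlap, as in Bst2, where a gamma-activated site began at base 136 before the start. A match describes letters in the window and says nothing of binding in these cells.

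**Figure D1:**
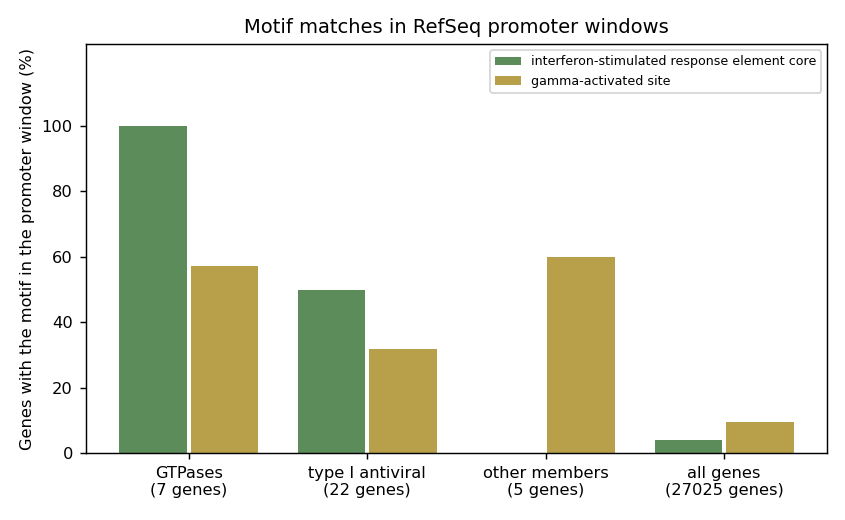
Share of genes (%) with a match to the response element core (green) or the gamma-activated site (ochre) in the promoter window, for the GTPases, the antiviral genes, the 5 further genes and all genes of the RefSeq table. The response element bar stands at 7 of 7 GTPase genes and 11 of 22 antiviral genes, against 3.99% for all genes.

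The labelled cell type was checked against its markers. The CD3 chains Cd3e, Cd3d and Cd3g lay between 10.15 and 11.49 on the log2 scale on all 6 arrays, and Zbtb16 between 9.54 and 10.68. As a guide to background, the 95th percentile over smell and pheromone receptor genes (olfactory and vomeronasal), which T cells are not known to use, was 5.05 to 5.25 on 5 arrays and 5.66 on PLZF_ON replicate 3. That array stood apart, with an SD over rows of 1.61 against 1.85 to 1.91 and correlations with the others of at most 0.944. It was the lowest of the 6 arrays for 65.0% of the measured interferon-stimulated genes, for 48.2% of rows at or above the median level, and for 27.1% of all tested rows. The monocyte marker Lyz2 was at 6.58 on it and at 3.96 to 4.48 on the other 5, and the hepatocyte marker Alb at 5.22 against 3.90 to 4.33. The Alb value of 5.22 was still below the receptor-gene percentile of that array (5.66). Other markers stayed low, with at most 5.40 for B cell markers (4 measured) and 5.68 for conventional dendritic cells (4 measured). Of the plasmacytoid dendritic cell markers (4 measured), Siglech lay between 4.91 and 5.08, and Cox6a2 between 5.84 and 6.15 over both groups. The median over the 6 monocyte and macrophage markers was 3.96 to 4.14 on WT arrays and 4.16 to 4.92 on PLZF_ON arrays. Of the 7 measured T and iNKT cell markers 4 were lower over 4 arrays, against 50.7% of all rows, and 0 passed limma. At an unadjusted p under 0.05 there were 2 lower, against 4.53% of rows, and 2 higher, against 4.88%. The 2 lower were Il2rb, a marker of NKT1 cells (-0.98), and Cd44, a marker of activated and memory T cells (-1.06), both without overlap on 6 arrays, and the 2 higher were Cd5 (0.77) and Zbtb16 (0.51), both with overlap on 6 arrays. The part of the narrower spread of PLZF_ON replicate 3 and of these marker levels in the results was not tested.

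In PLZF_ON cells the interferon-gamma GTPases lay below WT in 6 of 7 measured genes over the 4 arrays, with a median log2 difference of -0.61. The antiviral genes lay below WT in 19 of 28, with a median of -0.17, and 5 further genes had a median of -0.14, while the median over all tested rows was 0.00 and 50.7% of them were lower. By limma, adjusted over all 23521 rows, 0 of the 40 genes passed an adjusted p of 0.05, a threshold that 0.17% of rows passed. An unadjusted p under 0.05 was reached by 8 of the 40 as lower, against 4.53% of all rows, and by 1 as higher, against 4.88% (9.41% in either direction). The 8 were Gbp3, Gbp7, Irgm2, Iigp1, Bst2, Ifit3, Oasl1 and Parp14, and the 1 was Ifih1. In bulk samples fewer cells of a type and less RNA per cell cannot be told apart.

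**Figure D2:**
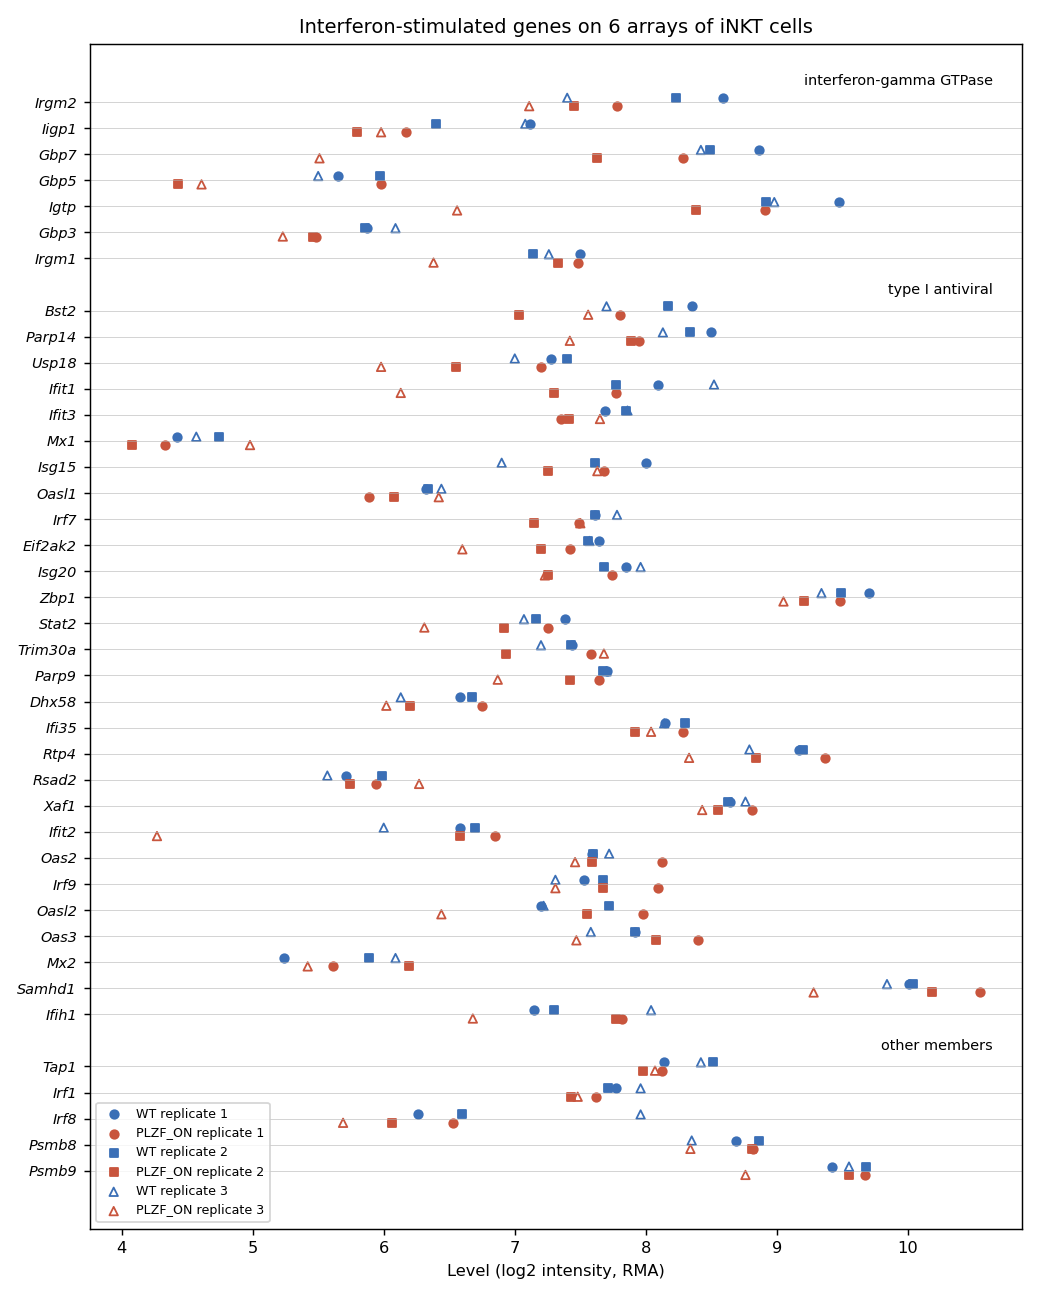
Level (log2 intensity after RMA) of each of the 40 measured genes on every array, with WT in blue and PLZF_ON in red, circles for replicate 1, squares for replicate 2 and open triangles for replicate 3. The open red triangles of Gbp7, Igtp, Ifit1 and Ifit2 lie far to the left of the other 5 arrays.

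The immunity-related GTPases are described first. Irgm2, which regulates other GTPases of the family, was at 8.59, 8.23 and 7.40 in WT replicates 1 to 3, while PLZF_ON replicates 1 to 3 read 7.78, 7.45 and 7.11. Among the 4 arrays the groups did not overlap, but WT replicate 3 lay below both PLZF_ON arrays used there. The difference was -0.79 on the log2 scale, or 1.73-fold lower (SE 0.19, limma adjusted p = 0.24, with 2 arrays in each group), and over 6 arrays it was -0.63 (SE 0.32, limma adjusted p = 0.937). Iigp1, a GTPase that loads onto vacuoles of parasites, was at 7.12, 6.40 and 7.08 in WT and at 6.17, 5.80 and 5.98 in PLZF_ON. All 3 PLZF_ON arrays lay below all 3 WT arrays. Its difference was -0.78, or 1.71-fold lower, over 4 arrays (SE 0.26, limma adjusted p = 0.422) and -0.89 over 6 (SE 0.23, limma adjusted p = 0.396), the smallest adjusted p of the 40 genes over 6 arrays. The 4-array difference of Iigp1 was -0.42 without WT replicate 1 and -1.13 without WT replicate 2.

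Igtp, a further immunity-related GTPase, was at 9.47, 8.92 and 8.98 in WT and at 8.91, 8.38 and 6.56 in PLZF_ON. The groups did not overlap on the 6 arrays, although PLZF_ON replicate 1 and WT replicate 2 were nearly level, and PLZF_ON replicate 3 was by far the lowest. The difference was -0.55 over 4 arrays (SE 0.25, limma adjusted p = 0.594) and -1.17 over 6 (SE 0.54, limma adjusted p = 0.901), so the added replicates 3 moved the log2 difference by more than 1.5 times. Irgm1, a regulatory member of the same family, was at 7.50, 7.14 and 7.26 in WT and at 7.48, 7.33 and 6.38 in PLZF_ON. It was the one GTPase whose 4-array difference, 0.09, was above zero, and only PLZF_ON replicate 3 lay below the WT range.

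The guanylate-binding proteins act on similar membranes. Gbp7 was at 8.86, 8.49 and 8.42 in WT and at 8.28, 7.63 and 5.51 in PLZF_ON. Every PLZF_ON array was below every WT array, and PLZF_ON replicate 3 was below the receptor-gene percentile of that array (5.66). The difference was -0.72, or 1.64-fold lower, over 4 arrays (SE 0.25, limma adjusted p = 0.436) and -1.45 over 6 (SE 0.62, limma adjusted p = 0.864). With PLZF_ON replicate 2 left out, the 4-array difference of Gbp7 was -0.39. Gbp3 was at 5.87, 5.86 and 6.09 in WT and at 5.48, 5.46 and 5.23 in PLZF_ON. Its groups were tight and did not overlap, with a difference of -0.39 over 4 arrays (SE 0.13, limma adjusted p = 0.403) and -0.55 over 6 (SE 0.16, limma adjusted p = 0.498), and PLZF_ON replicate 3 was also below 5.66. Gbp5, a guanylate-binding protein linked to inflammasome activation, was at 5.65, 5.97 and 5.50 in WT and at 5.98, 4.43 and 4.61 in PLZF_ON, so PLZF_ON replicate 1 was as high as the highest WT array. Its values on PLZF_ON replicates 2 and 3 were below the receptor-gene percentiles of those arrays (5.13 and 5.66). The 4-array difference of Gbp5, -0.61 (SE 0.47), is also the GTPase median and thus rests in part on a level not shown to be above background. The row shared by Gbp2 and Gbp2b differed by -0.08 over 4 arrays and -0.09 over 6. The Gbp and Irg families contain closely related copies, and signal from a related copy in a row cannot be told apart here.

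Over 6 arrays all 7 measured GTPases had means below WT (median -0.70), and in 4 of them, Gbp3, Gbp7, Igtp and Iigp1, the groups did not overlap, against 6.22% of all rows not overlapping in that direction. Over 4 arrays 5 of 7 GTPases did not overlap as lower, against 19.3% of rows, and 4 of 7 (Gbp5, Gbp7, Iigp1 and Irgm2) were at least 1.5-fold lower, against 2.14%. Bst2 was the one further gene of the 40 that was, and 0 of 40 were as much higher, against 2.73%. The size rested on single arrays. The GTPase median was -0.38 without PLZF_ON replicate 2, with 5 of 7 lower, and -0.96 without PLZF_ON replicate 1. Without WT replicate 1 it was -0.42.

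**Figure D3:**
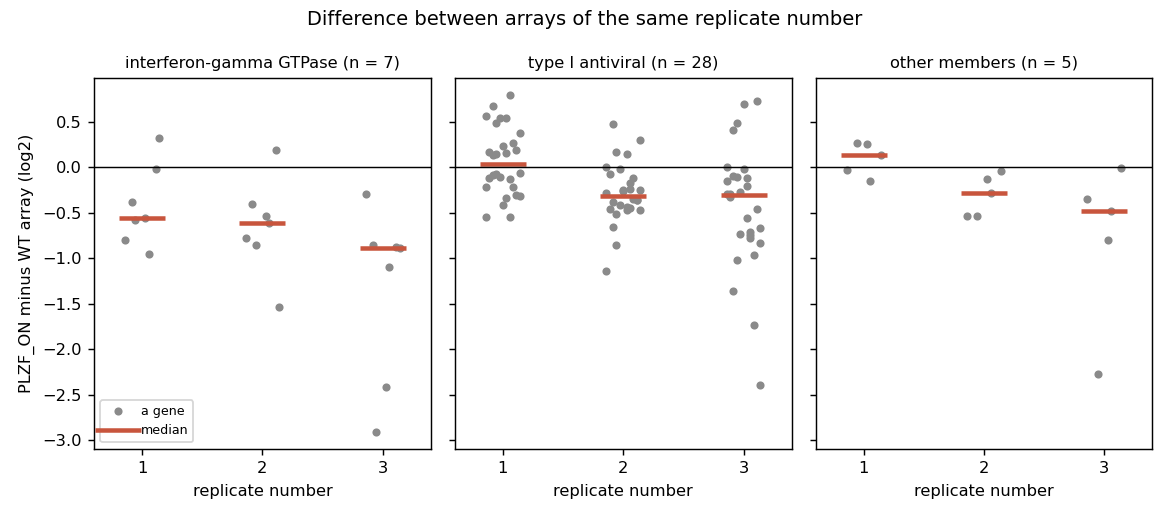
Difference in log2 level between the PLZF_ON and the WT array of the same replicate number, with a grey point for each gene and a red bar for the class median. The GTPase medians lie at -0.56, -0.61 and -0.89 for numbers 1 to 3, and the antiviral medians at 0.04, -0.32 and -0.31.

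The labels do not say that a replicate number marks a shared animal or batch. Set against each other, the antiviral median exceeded the GTPase median of differences by 0.44 over the 4 arrays. In levels, the antiviral median minus the GTPase median was 0.13 and 0.50 on WT replicates 1 and 2. On PLZF_ON replicates 1 and 2 it was 0.23 and -0.05, so the groups overlapped in this measure. On replicates 3 it was 0.38 in WT and 1.29 in PLZF_ON. The GTPase median level itself was 7.50 and 7.14 on WT replicates 1 and 2, and 7.48 and 7.33 on PLZF_ON replicates 1 and 2. Between arrays of replicate number 1 the GTPases were lower in PLZF_ON for 6 of 7 genes and the antiviral genes for 14 of 28. For number 2 these counts were 6 of 7 and 24 of 28, and for number 3 they were 7 of 7 and 24 of 28. Of all tested rows 51.0%, 48.9% and 44.0% were lower for numbers 1 to 3, and 63.7% of rows at or above the median level for number 3. The antiviral class thus had no common direction between the arrays of number 1. Leaving out 1 array in turn, the distance between the class medians of differences ranged from 0.27 (without WT replicate 1) to 0.64 (without WT replicate 2). It is given as a description, since the genes were chosen with earlier results known.

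**Figure D4:**
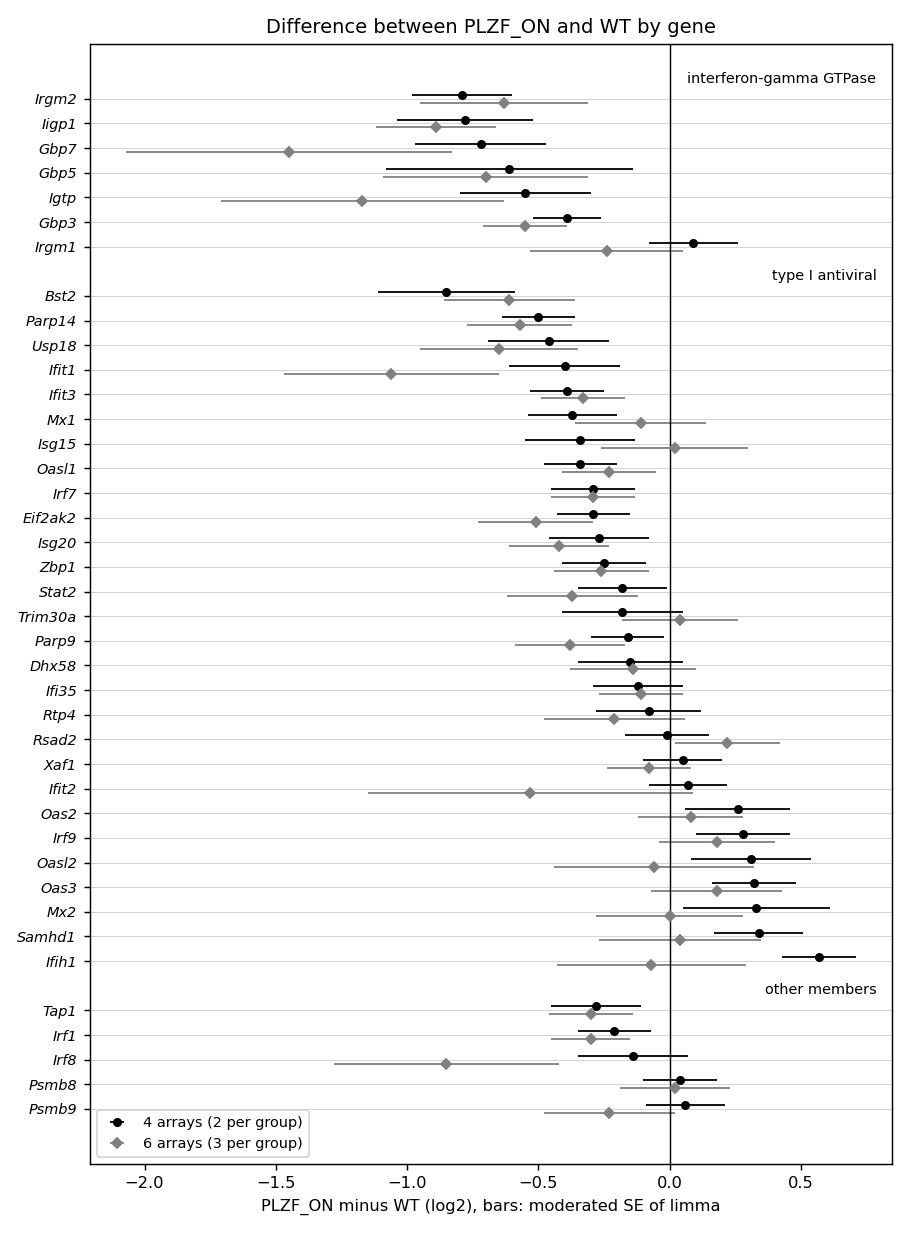
Difference between PLZF_ON and WT (log2) for each gene, with the moderated standard error of limma, over 4 arrays (black circles) and 6 arrays (grey diamonds). Among GTPases only Irgm1 lies right of zero over 4 arrays, while the antiviral genes spread from -0.85 (Bst2) to 0.57 (Ifih1).

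Among antiviral genes with lower values, Bst2 differed most. It encodes tetherin, which holds budding virus at the cell surface. Bst2 was at 8.35, 8.17 and 7.70 in WT and at 7.80, 7.03 and 7.56 in PLZF_ON, so WT replicate 3 lay below PLZF_ON replicate 1. Over 4 arrays its difference was -0.85, or 1.80-fold lower (SE 0.26, limma adjusted p = 0.376), and over 6 it was -0.61 (SE 0.25, limma adjusted p = 0.832). The 4-array difference of Bst2 was -0.46 when PLZF_ON replicate 2 was left out. Parp14, an ADP-ribosyltransferase induced by interferon, was at 8.50, 8.34 and 8.13 in WT and at 7.95, 7.89 and 7.42 in PLZF_ON, without overlap. The Parp14 difference was -0.50 over 4 arrays (SE 0.14, limma adjusted p = 0.298) and -0.57 over 6 (SE 0.20, limma adjusted p = 0.688). Its partner Parp9 was also without overlap, with differences of -0.16 and -0.38, and the row shared by Dtx3l and Parp9 differed by -0.18 and -0.17.

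The IFIT proteins bind viral RNA and block its translation. Ifit3 was at 7.69, 7.85 and 7.86 in WT and at 7.35, 7.41 and 7.65 in PLZF_ON, a small shift without overlap (-0.39 over 4 arrays, SE 0.14, limma adjusted p = 0.437, and -0.33 over 6, SE 0.16, limma adjusted p = 0.906). Ifit1 was at 8.09, 7.77 and 8.52 in WT and at 7.77, 7.30 and 6.13 in PLZF_ON. WT replicate 2 and PLZF_ON replicate 1 were level, and the 6-array difference of -1.06 (SE 0.41, limma adjusted p = 0.772) was larger than the 4-array one of -0.40 (SE 0.21, limma adjusted p = 0.661). The arrays added were the highest WT array and the lowest PLZF_ON array of this gene. Ifit2 was also low on PLZF_ON replicate 3, at 4.27 against at most 6.85 on the others, and its difference was 0.07 over 4 arrays and -0.53 over 6.

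The OAS proteins and their relatives make or resemble enzymes that make oligoadenylates, the activators of RNase L. Oasl1, a relative without that activity, was at 6.32, 6.34 and 6.44 in WT and at 5.89, 6.08 and 6.42 in PLZF_ON. The 2 PLZF_ON arrays of the 4-array comparison lay below WT (-0.34, SE 0.14, limma adjusted p = 0.524), and PLZF_ON replicate 3 lay within the WT range. The 4-array differences were 0.26 for Oas2, 0.32 for Oas3 and 0.31 for Oasl2, none past the test. Over 6 arrays these 3 were at 0.08, 0.18 and -0.06. The row shared by Oas1a and Oas1g was at 5.72, 6.64 and 6.62 in WT and at 5.80, 5.57 and 5.55 in PLZF_ON, so its lowest WT array lay below the highest PLZF_ON array. That shared row differed by -0.49 over 4 arrays and -0.68 over 6.

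Ifih1, which encodes the RNA sensor MDA5, had the smallest p among genes with higher values. It was at 7.15, 7.30 and 8.04 in WT and at 7.82, 7.77 and 6.68 in PLZF_ON. PLZF_ON was higher on the 4 arrays (0.57, SE 0.14, limma adjusted p = 0.24), whereas WT replicate 3 was the highest and PLZF_ON replicate 3 the lowest of all, and the 6-array difference was -0.07 (SE 0.36, limma adjusted p = 0.982). Oas3 and the nucleotide hydrolase Samhd1 (0.34) were the other 2 genes without overlap as higher over 4 arrays, so 3 of 40 did so, against 18.9% of rows, and over 6 arrays 0 did, against 5.55%. The helicase Dhx58, which modulates the same sensors, differed by -0.15, and the nucleic acid sensor Zbp1 by -0.25.

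The transcription factors of the type I response differed in sign. Irf9 had a 4-array difference of 0.28, Stat2 of -0.18 and Irf7, which amplifies type I interferon production, of -0.29, with Irf7 below WT without overlap on the 6 arrays. Usp18, which dampens signalling at the type I receptor, differed by -0.46 and by -0.65 over 6 arrays, and the kinase Eif2ak2 (PKR), which halts translation, by -0.29 and -0.51. Isg15, a ubiquitin-like modifier, was at -0.34 over 4 arrays and 0.02 over 6, and Isg20, an exonuclease, at -0.27 and -0.42. Mx1 was at 4.42, 4.74 and 4.57 in WT and at 4.33, 4.08 and 4.98 in PLZF_ON, below the receptor-gene percentile on each array, so its difference of -0.37 was within levels not shown to be above background. The remaining antiviral genes, Mx2, Rsad2, Rtp4, Xaf1, Trim30a and Ifi35, lay between -0.18 (Trim30a) and 0.33 (Mx2) over 4 arrays. Ifi35 had another row, which differed by -0.57 where the row used differed by -0.12.

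Over 6 arrays 32 of the 40 genes had lower means in PLZF_ON, against 45.1% of all rows, and 11 did not overlap as lower, against 6.22%. On the brighter rows alone 31 of 39 genes were lower, against 59.5% of those rows. There 4 genes were lower at an unadjusted p under 0.05 by limma, against 5.17% of those rows. After quantile normalization again 28 of 40 were lower, against 48.6% of rows. By limma 0 passed over 6 arrays, against 0.0935% of rows, and 6 (Bst2, Gbp3, Gbp7, Ifit1, Iigp1 and Parp14) had an unadjusted p under 0.05, all lower, against 3.32% of rows as lower and 2.45% as higher (5.77% in either direction). At least 1.5-fold lower were 9 of the 40, against 3.45%, and 0 were as much higher, against 2.11%. Without PLZF_ON replicate 3 there were 25 of 40 lower, against 52.9% of rows. Over the 4 arrays without PLZF_ON replicate 2 there were 21 of 40 lower, against 50.9% of rows. At an unadjusted p under 0.05 there were then 3 lower, against 3.49% of rows, and 5 higher, against 4.17%, and the antiviral median was 0.01.

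Of the further genes, Irf1, the main transcription factor induced by interferon-gamma, was at 7.77, 7.71 and 7.96 in WT and at 7.62, 7.43 and 7.48 in PLZF_ON. The groups did not overlap, and the difference was -0.21 (SE 0.14, limma adjusted p = 0.752). Tap1, a subunit of the peptide transporter for MHC class I, was at 8.14, 8.51 and 8.42 in WT and at 8.12, 7.98 and 8.07 in PLZF_ON, narrowly without overlap (-0.28, SE 0.17, limma adjusted p = 0.722). The immunoproteasome subunits Psmb8 and Psmb9 differed by 0.04 and 0.06. Irf8 was at 6.26, 6.60 and 7.96 in WT and at 6.53, 6.06 and 5.69 in PLZF_ON, with overlap, and its difference of -0.14 (SE 0.21, limma adjusted p = 0.922) became -0.85 over 6 arrays, where WT replicate 3 was the highest. Its other row differed by -0.46 and -0.38.

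The genes that make, receive and relay interferon were taken from lists of the pathway. Ifng itself was at 6.87, 6.94 and 8.16 in WT and at 6.55, 4.94 and 6.45 in PLZF_ON, without overlap. The difference was -1.16 over 4 arrays (SE 0.48, limma adjusted p = 0.532) and -1.35 over 6 (SE 0.50, limma adjusted p = 0.75). Its value on PLZF_ON replicate 2 was below the receptor-gene percentile of that array (5.13). Ifngr1, the ligand-binding chain of its receptor, was at 9.11, 8.95 and 9.16 in WT and at 8.45, 7.50 and 7.76 in PLZF_ON. Ifngr2, the signalling chain, lay the other way, at 6.07, 6.34 and 6.09 in WT and at 7.17, 6.76 and 6.58 in PLZF_ON. Both chains were without overlap on all 6 arrays. Over 4 arrays Ifngr1 differed by -1.05 (SE 0.30, limma adjusted p = 0.331) and Ifngr2 by 0.77 (SE 0.19, limma adjusted p = 0.252). The type I receptor chains Ifnar1 and Ifnar2 differed by -0.24 and -0.31, and Ifnb1 lay between 2.89 and 3.48 on all arrays, below the receptor-gene percentile. The other type I interferon gene of the list, Ifna4, lay between 6.72 and 7.43, above that percentile, and differed by 0.02 in both fits. In this list 0 of 7 genes passed limma over either set of arrays. At an unadjusted p under 0.05 there were 1 lower and 1 higher over 4 arrays, against 4.53% and 4.88% of all rows. Over 6 arrays there were 3 lower (Ifng, Ifngr1 and Ifnar2) and 1 higher (Ifngr2), against 3.32% and 2.45%.

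Among kinases, STATs and SOCS proteins 0 of 7 measured genes passed and 3 were lower at an unadjusted p under 0.05 over 4 arrays. The share of all rows lower at that p was 4.53%. The 3 were Tyk2, a kinase of the type I and interleukin-12 receptors (-0.54), Socs3, an inhibitor of cytokine signalling (-0.56), and Stat4, which relays interleukin-12 signals (-1.51). Over 6 arrays only Tyk2 had an unadjusted p under 0.05, against 3.32% of rows, while Socs3 (-0.30) and Stat4 (-1.09) overlapped. Stat4 was at 8.86, 8.78 and 9.25 in WT and at 8.35, 6.27 and 9.0 in PLZF_ON, so PLZF_ON replicate 2 was far below the rest and PLZF_ON replicate 3 lay within the WT range. Jak1 and Jak2 differed by -0.01 and 0.00, and Socs1, an inhibitor induced by interferon-gamma, by -0.33.

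Among nucleic acid sensors and adaptors Tlr7, the endosomal receptor for single-stranded RNA, came closest to the threshold. It was at 6.34, 5.76 and 6.97 in WT and at 4.36, 4.40 and 5.10 in PLZF_ON, and each PLZF_ON value was below the receptor-gene percentile of its array. The difference was -1.67 over 4 arrays (SE 0.21, limma adjusted p = 0.0733) and -1.73 over 6 (limma adjusted p = 0.193). The other 8 measured sensors and adaptors, among them Ddx58 (RIG-I, -0.03), Sting1 (0.04) and Cgas (0.16), lay between -0.47 (Tlr3) and 0.16. By limma 0 of the 9 passed over 4 or 6 arrays. In each fit 1, Tlr7, was lower at an unadjusted p under 0.05, against 4.53% of all rows over 4 arrays and 3.32% over 6.

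Other genes induced by interferon-gamma that were not on the list of 44 had a median of -0.36 over 4 arrays, with 9 of 11 measured lower, against 50.7% of all rows, 0 past limma and 5 lower at an unadjusted p under 0.05, against 4.53%. One of the 5, Gbp6, lay between 2.90 and 3.64 on all arrays, below the receptor-gene percentile. The median of -0.36 is the difference of Gbp11, which lay between 2.90 and 3.83, also below that percentile on all arrays. It thus rests on a level not shown to be above background. Ido1 (0.16) was below the percentile on all arrays, and Cxcl9 (0.12) on all but PLZF_ON replicate 3. Over 6 arrays the median was -0.25, with 3 lower at an unadjusted p under 0.05, against 3.32% of rows. Gbp9 was at 9.55, 9.24 and 9.07 in WT and at 8.40, 8.73 and 8.12 in PLZF_ON, without overlap (-0.83, SE 0.18, limma adjusted p = 0.197). Cxcl10, a chemokine that attracts T cells through CXCR3, was at 4.80, 5.13 and 5.24 in WT and at 4.50, 4.06 and 4.24 in PLZF_ON, near or below the receptor-gene percentile. Gbp10 (-0.49) was also lower without overlap on all 6 arrays. Gbp8 differed by -0.73 over 4 arrays and by -0.25 over 6, where PLZF_ON replicate 3, at 9.07, lay within the WT range.

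For MHC class I presentation 0 of 8 measured genes passed limma. At an unadjusted p under 0.05, 1 (Nlrc5) was lower over 4 arrays, against 4.53% of all rows. Over 6 arrays 2 (Nlrc5 and H2-K1) were, against 3.32%. Nlrc5, the transactivator of MHC class I genes, was at 8.12, 7.70 and 7.92 in WT and at 7.43, 7.26 and 5.83 in PLZF_ON, without overlap (-0.56, SE 0.18, limma adjusted p = 0.403). The class I heavy chain H2-K1 was at 9.87, 9.83 and 9.82 in WT and at 9.64, 9.36 and 8.98 in PLZF_ON (-0.35, SE 0.15, limma adjusted p = 0.568). B2m, the light chain, differed by -0.07, and Tap2 and Psme2 by 0.27 and 0.34.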

How the data were processed

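Total RNA was turned into biotin-labelled targets for Affymetrix whole-transcript arrays, according to the protocols in the labels. The authors deposited log2 expression values for 41345 rows on 6 arrays, made with RMA per the submitters' processing notes. RMA corrects background, normalizes the arrays together and summarises probes, and it compresses differences of dim genes. For genome build and array annotation, the authors' choices were not given in the sources used here. These values carry no detection flag or depth, so the number of arrays limits the precision.

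Rows were named through the platform annotation. Those with exactly 1 gene symbol (23521) were tested, 1814 with several symbols and 16010 without a symbol there were left out, and a gene with several rows was represented by the one with the highest mean over the 6 arrays. PLZF_ON was compared with WT by the moderated test of limma 3.58.1 under R 4.3.3 (two-sided, on genotype alone), adjusted by Benjamini-Hochberg over all tested rows at 0.05. Differences are PLZF_ON minus WT. Class medians are descriptions without a test. Values on every array are given for the members with the smallest p in each class (6, 4 and 3), those with an unadjusted p under 0.05 in either fit, those with a log2 difference of at least 1, and Ifng. Other genes whose arrays are given (Igtp, Irgm1, Gbp5, Stat4, Tlr7, the interferon-gamma receptor chains, Gbp9, Cxcl10, Nlrc5 and H2-K1) were chosen after their values were seen. Members and lists were chosen with earlier results of these data known. The olfactory and vomeronasal percentile was also chosen later. Sting1 and Cgas were matched through synonyms in the NCBI gene table. The planned protein comparison was not run.

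The script was tested on simulated data. Fits were repeated with a block for the replicate number, without each array in turn, on brighter rows, after quantile normalization or median centring, with a variance trend and on the mean over rows of a gene. Matplotlib 3.10.9 drew the figures.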

Additional observations from a re-analysis of the deposited data

How the results depend on the processing

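Over 4 arrays, 0 of the 40 genes passed limma under any alternative that kept every array. At an unadjusted p under 0.05 the fewest were 8 of 39 on brighter rows (7 lower, against 6.1% of those rows). The most were 10 of 40, as with the replicate block (9 lower, against 4.88% of rows). In each of these 2 fits 1 was higher, against 6.5% and 5.58%. Over 6 arrays 0 passed under any alternative. From 3 (without WT replicate 1, against 2.19% of rows as lower) to 13 (without PLZF_ON replicate 1, against 4.28%) had that p. All were lower except without PLZF_ON replicate 3, where 9 were lower, against 4.66% of rows, and 2 higher, against 5.04%. Leaving out 1 array in turn, the 4-array median of all 40 ranged from -0.36 to -0.02, that of the GTPases from -0.96 to -0.38, and the difference of Irf8 from -0.37 to 0.10, which changed its sign without PLZF_ON replicate 2 (0.10) and without WT replicate 2 (0.03). The 4-array difference of Ifit1 ranged from -0.63 to -0.16 (without PLZF_ON replicate 2), that of Irf1 from -0.31 to -0.11 (without PLZF_ON replicate 2), that of Mx1 from -0.53 to -0.22 (without WT replicate 2) and that of Tap1 from -0.47 to -0.10 (without WT replicate 2). In those fits the lone array of a group is assumed to vary like the other group. The cause of these changes was not tested. The other 4-array alternatives moved the GTPase median between -0.62 and -0.59 and the antiviral median between -0.18 and -0.16. The 6-array median of all 40, -0.27, was -0.15 with quantile normalization again and -0.32 with median centring. Same-numbered arrays had deviations correlated at 0.132 over 4 arrays and at 0.092, 0.253 and 0.239 over 6. For arrays of different numbers the correlation was -0.132 over 4 arrays and lay between -0.235 and 0.124 over 6. With 2 arrays in each group, deviations from the group mean are equal and opposite. The value of -0.132 therefore follows from 0.132 and is no separate comparison. The numbers were not taken as pairs because the labels do not say what they mark. Whether same-numbered arrays share a source was not tested. With the replicate number as a block, 0 of the 40 genes passed (smallest limma adjusted p = 0.115, Irgm2, over 4 arrays, and 0.212, Iigp1, over 6) and the class medians were -0.17 and -0.61, while 101 of all rows passed over 4 arrays where 40 did without it. Over 6 arrays, where 22 of all rows passed, 107 did without PLZF_ON replicate 3, 5 with median centring, and 15 with a variance trend. Without PLZF_ON replicate 2, WT replicate 1 or WT replicate 2, 0 rows passed over 6 arrays, and without PLZF_ON replicate 2 also 0 over 4. Rows below the receptor-gene percentile (6 of the 40 on PLZF_ON replicate 3, and Gbp5 and Mx1 on PLZF_ON replicate 2) carry only an upper bound there.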
